A study of Sus scrofa with 9 samples.

Results

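MYH1, MYH2, MYH4 and MYH7 encode the myosin heavy chains of adult skeletal muscle fibres, and their transcripts were followed here in the longissimus dorsi, the long back muscle, of Bama minipigs. These 4 genes are among the 3196 genes that could be named on the arrays, and every probe assigned to one of them through its RefSeq accession was used, which gave 26 of 43603 probes. MYH1 had 7 probes, MYH2 had 3, MYH4 had 8 and MYH7 had 8. The rule used gene names and no measured value.

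Of the 2 diets, the high-fat high-sucrose one (HFHSD) was given to 6 gonadally intact animals, which ate 53% basal feed, 37% sucrose and 10% lard for 23 months, starting at 6 months of age. The control diet (CD) was given to 3 intact animals of the same starting age, which ate standard chow for the same time. Both groups held males and females, were fed a restricted amount in individual pens and were fasted overnight before the muscle was taken, and the labels give neither the sex nor the litter of a single animal. Each array is 1 animal and was hybridised with Cy3-labelled RNA on a single-colour Agilent porcine array, and the animals are numbered here within each group only to name them. The series design gives 3 CD animals and the growth protocol 6, and 3 CD arrays were used.

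Myosin heavy chain is the motor protein of the thick filament: its head splits ATP and pulls on actin, and the isoform a fibre makes largely sets how fast it shortens. MYH7 encodes the slow isoform of type I fibres, which is also the ventricular beta isoform, MYH2 the type IIa isoform of fast oxidative fibres, MYH1 the type IIx isoform and MYH4 the type IIb isoform of the fastest glycolytic fibres. Fibres can shift between isoforms along the order I, IIa, IIx, IIb, and the pig is one of the large mammals whose trunk muscles carry the IIb transcript in abundance. In the RefSeq gene table the neighbours MYH4, MYH1 and MYH2 follow each other in that order within the fast myosin cluster, and MYH7 lies elsewhere, next to the microRNA gene MIR208B. The array files name no genome build, so no coordinates are given.

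Levels are log2 processed signals set against the 75th percentile of their own array, which is 0 on this scale, and 1 unit is a 2-fold step. Levels of different probes depend on the probe as well as on the transcript and are not compared. The 26 probes were all well above background on 9 of 9 arrays, and none was saturated. The processed signal of the brightest probe ran from 82822 to 291750 for MYH1, from 32443 to 144661 for MYH2, from 59612 to 272304 for MYH4 and from 81603 to 307723 for MYH7.

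The arrays lay on 3 slides. HFHSD 5 and HFHSD 6 shared slide 1, which has another scan day than the rest. On slide 2, CD 1 stood beside 3 HFHSD arrays, those of HFHSD 1, HFHSD 3 and HFHSD 4. On slide 3, HFHSD 2 was the only HFHSD array, beside CD 2 and CD 3. Between 51.2% and 68.9% of all probes were well above background on 8 arrays, against 36.8% on CD 1, which also had the lowest 75th percentile of signal, 134, where the other arrays had 167 to 296. Among markers of skeletal muscle fibres, 8 of 10 were measured, and their mean level was 8.90 to 9.26 on the HFHSD arrays and 9.07 to 9.57 on the CD arrays.

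None of the 26 probes passed the test for a diet difference (limma, Benjamini-Hochberg over 27922 probes, adjusted p under 0.05), where 1.23% of all tested probes did. Unadjusted p was under 0.05 for 6 of the 26 and for 16.5% of all tested probes. The 6 were 2 MYH2 probes that were lower in HFHSD and 4 MYH4 probes that were higher, and over all tested probes the shares were 8.76% lower and 7.71% higher. The 3 MYH2 probes all had a lower mean in HFHSD, as 52.1% of all tested probes did, except that 1 of them was higher by 0.052 after normexp correction with percentile scaling. The 8 MYH4 probes all had a higher mean in HFHSD under every scaling tried, as 47.9% of all tested probes did in the reported fit. MYH1 and MYH7 had probes on both sides of 0, and the split moved with the scaling. In bulk muscle, fewer fibres of a type and less transcript per fibre cannot be told apart.

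**Figure D1:**
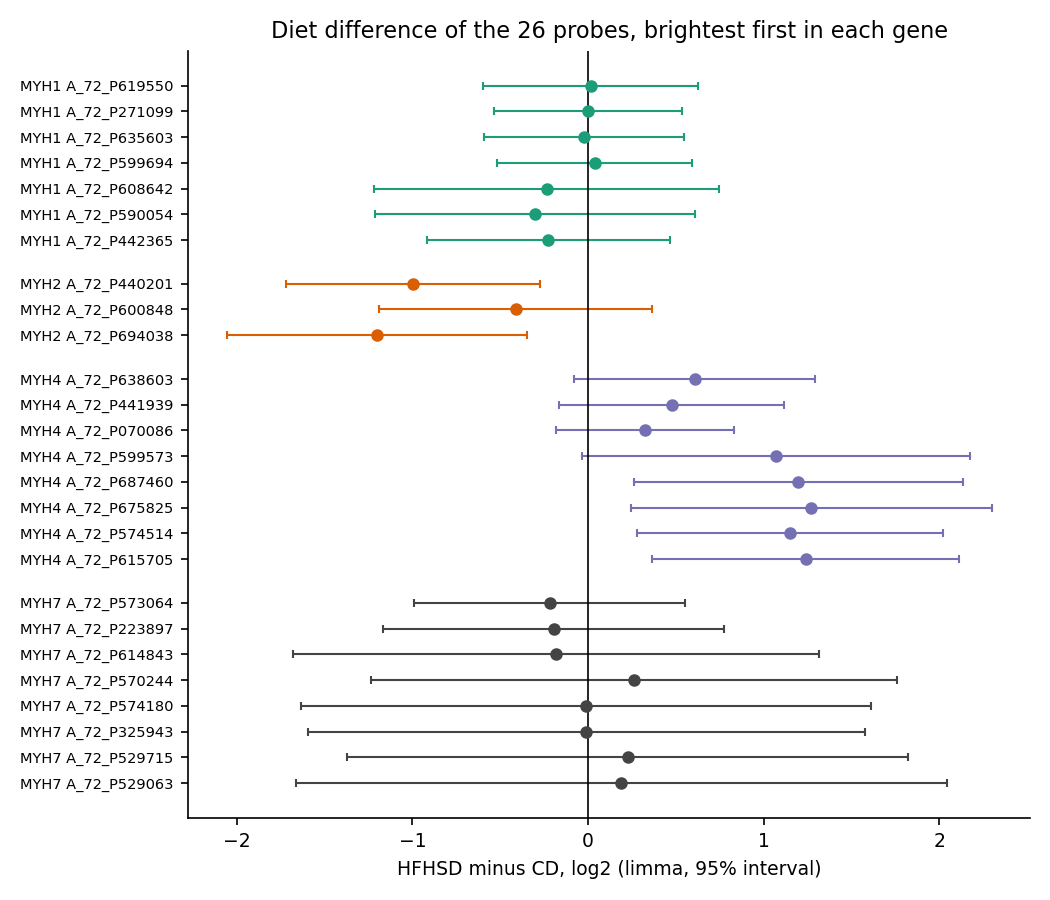
Diet difference (HFHSD minus CD, log2) of each of the 26 probes with its 95% interval from the limma fit, ordered within each gene by mean level, brightest at the top. The MYH2 points all lie left of 0, from -1.20 to -0.41, the MYH4 points all lie right of 0, from 0.32 to 1.27, and the MYH1 and MYH7 points lie around 0.

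MYH2, the type IIa isoform, had the lower mean in HFHSD muscle. Its brightest probe read 7.69, 7.64, 8.57, 7.57, 8.31 and 8.93 on HFHSD 1 to HFHSD 6, against 9.20, 9.17 and 8.97 on CD 1 to CD 3. Every HFHSD animal lay below every CD animal, with HFHSD 6 only just below CD 3, and the HFHSD animals were split into a lower set of HFHSD 1, HFHSD 2 and HFHSD 4 and a higher set of the other 3. Over all tested probes, 6.11% had groups that did not overlap in this direction. The means were 8.12 ± 0.57 in HFHSD (SD, n = 6) and 9.11 ± 0.12 in CD (SD, n = 3). The difference was -0.996 (SE 0.32), or 0.501 times the CD level with a 95% interval of 0.303 to 0.829, and the adjusted p from limma was 0.158 (unadjusted 0.012). Over the alternatives the adjusted p was between 0.067 and 0.609 and none passed, and after normexp correction with percentile scaling the difference was -0.59.

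The MYH2 probe A_72_P694038 gave the same separation. It read 6.28, 6.45, 7.57, 6.46, 7.37 and 7.89 on HFHSD 1 to HFHSD 6, against 8.15, 8.46 and 8.01 on CD 1 to CD 3. Again all 6 HFHSD animals were below the 3 CD animals, and the difference was -1.20 (SE 0.38, limma adjusted p = 0.149). The MYH2 probe A_72_P600848 read 7.23, 7.47, 8.68, 7.53, 8.37 and 8.25 on HFHSD 1 to HFHSD 6, against 8.71, 8.06 and 8.23 on CD 1 to CD 3. Here the groups overlapped, since HFHSD 3, HFHSD 5 and HFHSD 6 lay among the CD animals, and the difference was -0.41 (SE 0.35, limma adjusted p = 0.636).

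Within slides, all 3 MYH2 probes were lower in HFHSD. For the brightest probe the difference was -1.26 on slide 2 (HFHSD n = 3, CD n = 1) and -1.43 on slide 3 (HFHSD n = 1, CD n = 2), with no test at these numbers. Without slide 1 it was -1.25. With slide as a fixed block the difference of the brightest MYH2 probe was -1.34. The HFHSD arrays with the highest MYH2 levels besides HFHSD 3 were those of slide 1. That slide held no CD animal, so its part in these higher levels cannot be told apart from that of the animals on it.

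MYH4, the type IIb isoform, had the higher mean in HFHSD on 8 of 8 probes, by 0.32 to 1.27. Its brightest probe read 8.95, 10.09, 9.20, 9.21, 10.16 and 9.44 on HFHSD 1 to HFHSD 6, against 8.80, 8.69 and 9.22 on CD 1 to CD 3. The groups overlapped, since CD 3 lay above HFHSD 1, HFHSD 3 and HFHSD 4, while HFHSD 2 and HFHSD 5 stood above all others. The means were 9.51 ± 0.50 in HFHSD (SD, n = 6) and 8.90 ± 0.28 in CD (SD, n = 3), a difference of 0.61 (SE 0.31, limma adjusted p = 0.370). The 95% interval ran from 0.947 to 2.45 times the CD level. After normexp correction with percentile scaling the difference of this probe was 1.18, and the mean of the MYH4 probes gave 0.92.

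The MYH4 probes fell into brighter and dimmer ones that read the CD animals differently. The 3 brighter probes gave differences of 0.32 to 0.61 and a range over the 9 arrays of 1.12 to 1.58 log2 units, and the 5 dimmer probes gave 1.07 to 1.27 and 2.65 to 2.86. The dimmest, A_72_P615705, read 6.59, 7.36, 6.68, 6.76, 7.03 and 6.20 on HFHSD 1 to HFHSD 6, against 6.42, 4.53 and 5.64 on CD 1 to CD 3. Here 5 of the 6 HFHSD animals lay above every CD animal and CD 2 stood far below the rest. Its means were 6.77 ± 0.40 in HFHSD (SD, n = 6) and 5.53 ± 0.95 in CD (SD, n = 3), a difference of 1.24 (SE 0.39, limma adjusted p = 0.145).

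CD 2 was the lowest of the 9 arrays on 8 of 8 MYH4 probes. Without CD 2 the difference of the dimmest MYH4 probe, A_72_P615705, was 0.74, against 1.24 with all 9 arrays, and without CD 2 the brightest MYH4 probe gave 0.50. Within slides the brightest MYH4 probe gave 0.32 on slide 2 and 1.14 on slide 3, which holds CD 2 and CD 3, and all 8 probes were higher in HFHSD on slide 3, by 0.53 to 2.32. On slide 2, with CD 1, they ran from -0.16 to 0.36 and 3 of 8 were lower. After normexp correction with percentile scaling the 5 dimmer MYH4 probes did pass, with differences of 1.62 to 1.71 and limma adjusted p of 0.0291 to 0.0481, where 0.315% of all tested probes passed. In the other 21 alternatives no probe of the 4 genes passed.

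**Figure D2:**
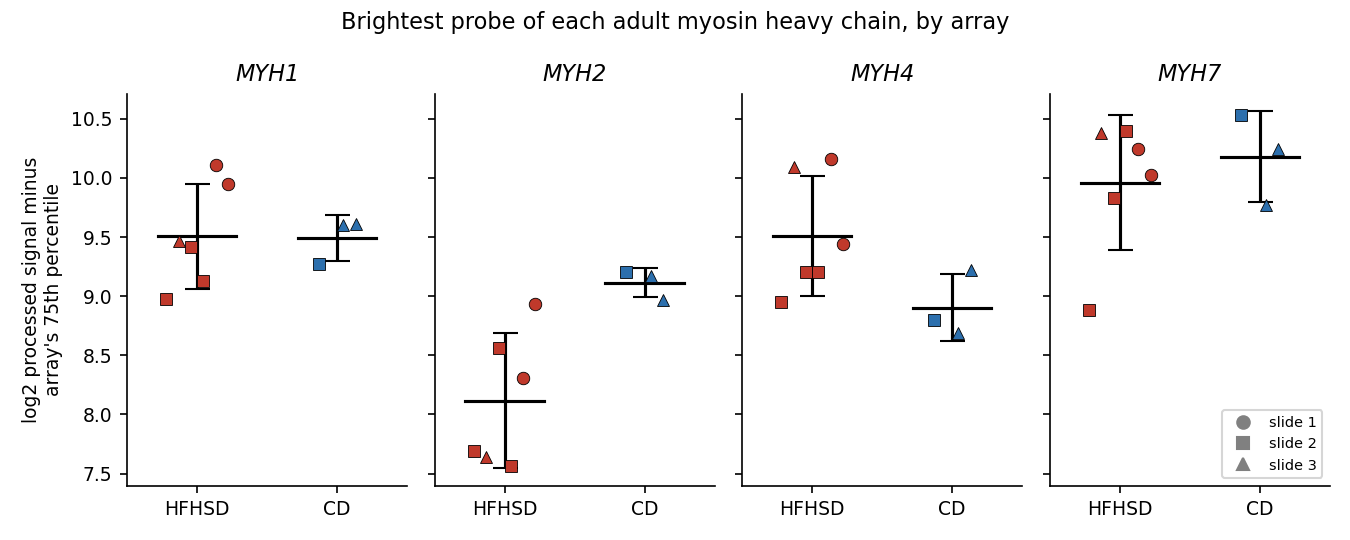
Level of the brightest probe of each gene (y axis, log2 processed signal relative to its array's 75th percentile) in the 6 HFHSD and 3 CD animals. Points are arrays, with the shape giving the slide, and bars are the mean and SD. The MYH2 groups do not overlap, the groups of the other genes do, and heights in different panels belong to different probes and are not comparable.

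MYH1, the type IIx isoform, showed no diet difference larger than the spread between animals. Its brightest probe read 8.98, 9.47, 9.42, 9.13, 10.11 and 9.95 on HFHSD 1 to HFHSD 6, against 9.27, 9.60 and 9.61 on CD 1 to CD 3. The CD animals lay within the HFHSD range, and the 2 highest HFHSD arrays, HFHSD 5 and HFHSD 6, were the 2 arrays of slide 1. The means were 9.51 ± 0.44 in HFHSD (SD, n = 6) and 9.49 ± 0.19 in CD (SD, n = 3), a difference of 0.014 (SE 0.27, limma adjusted p = 0.989) with a 95% interval of -0.60 to 0.63.

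Of the other 6 MYH1 probes, 2 had a mean in HFHSD at or above that in CD, by 0.00062 and 0.037, and 4 had a lower one, down to -0.30. The lowest unadjusted p among all 7 was 0.479. Within slide 2 all 7 MYH1 probes were lower in HFHSD, with differences of -0.81 to -0.095, and within slide 3 they ran from -0.85 to 0.22. Without slide 1 the brightest MYH1 probe gave -0.25 (limma adjusted p = 0.537), and 7 of 7 probes were lower. After normexp correction with percentile scaling it gave 0.57 and 0 of 7 were lower, so no direction is given for this gene.

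MYH7, the slow isoform, differed more among the HFHSD animals than between diets. Its brightest probe read 8.89, 10.38, 9.83, 10.40, 10.25 and 10.02 on HFHSD 1 to HFHSD 6, against 10.53, 9.77 and 10.24 on CD 1 to CD 3. HFHSD 1 stood below all other animals, and the other 5 HFHSD animals lay within the CD range. The means were 9.96 ± 0.57 in HFHSD (SD, n = 6) and 10.18 ± 0.38 in CD (SD, n = 3), a difference of -0.22 (SE 0.34, limma adjusted p = 0.821) with a 95% interval of -0.99 to 0.55.

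The same animals stood at the ends on the other MYH7 probes. HFHSD 1 was the lowest array on 8 of 8 probes, and HFHSD 2 and HFHSD 4 were each among the 2 highest on 7 of 8. The probe with the widest range, A_72_P529063, read 2.23, 6.25, 3.63, 6.05, 4.75 and 4.79 on HFHSD 1 to HFHSD 6, against 4.67, 3.42 and 5.19 on CD 1 to CD 3. The distance between HFHSD 2 and HFHSD 1 on that probe was 16.2-fold, and the CD animals lay between them.

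The range over the 9 arrays was 1.64 to 2.14 log2 units on the 2 brightest MYH7 probes and 3.30 to 4.02 on the 6 dimmer ones. For comparison, the median range of all tested probes was 1.40. The SD was larger among the 6 HFHSD animals (0.57 to 1.51) than among the 3 CD animals (0.24 to 0.91) on 8 of 8 MYH7 probes, and the medians over all tested probes were 0.43 in HFHSD and 0.30 in CD. Equality of these spreads was not tested, and the 8 probes read the same gene in the same animals. HFHSD 1 and HFHSD 4, at opposite ends, were on the same slide.

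Within slide 2 the brightest MYH7 probe gave -0.83 and within slide 3 it gave 0.37. On slide 2, 7 of 8 MYH7 probes were lower in HFHSD, and on slide 3 none was, with differences there of 0.37 to 1.95. The HFHSD side of slide 3 is HFHSD 2 alone. Leaving out HFHSD 1 brought the difference of the brightest MYH7 probe to -0.0044 and left 1 of 8 probes lower in HFHSD, while leaving out HFHSD 4 left 8 of 8 lower. Without CD 1 it was -0.044 and without CD 2 it was -0.42.

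**Figure D3:**
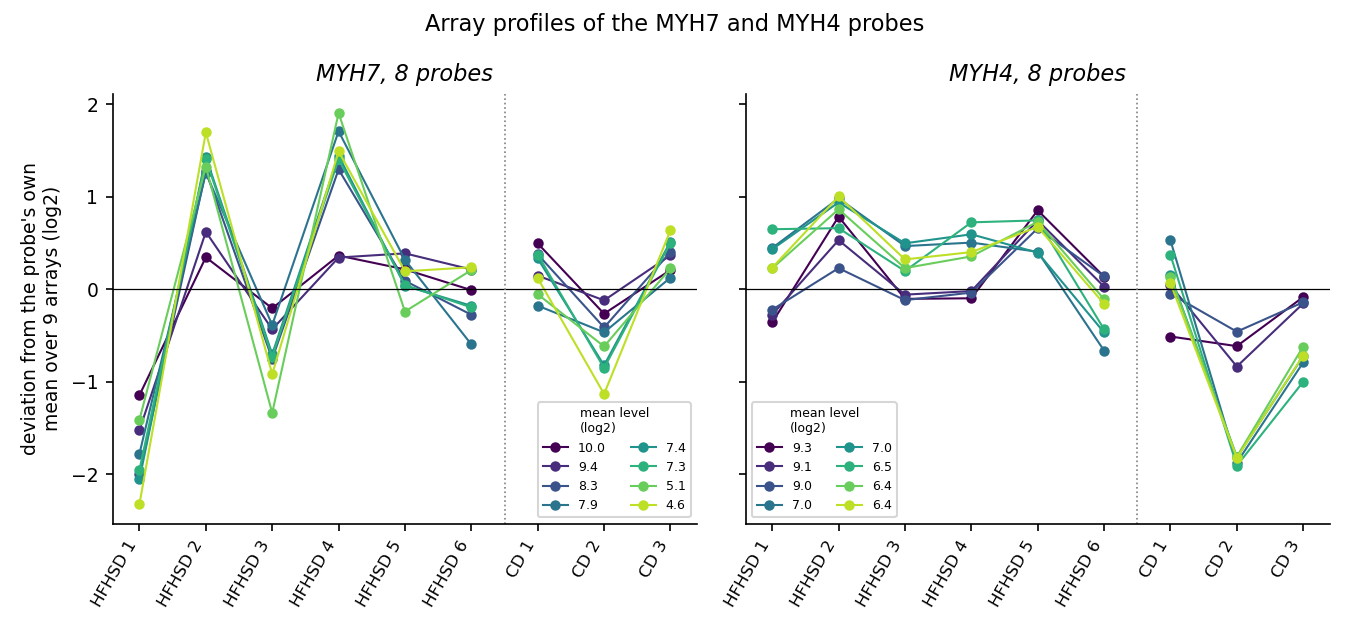
Deviation of each MYH7 probe (left) and each MYH4 probe (right) from its own mean over the 9 arrays (y axis, log2), with arrays on the x axis, HFHSD left of CD, and colours giving the probe's mean level. All 8 MYH7 lines have their minimum at HFHSD 1, all 8 MYH4 lines have theirs at CD 2, and the dimmer probes swing more widely than the brighter ones.

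The probes of a gene were also set against each other across the 9 arrays. Probes on the same array share its RNA, slide and scan, so correlations are given as a description. For 23 of 26 probes the most similar of the other 25 was a probe of the same gene. All MYH7 probes followed each other, with Pearson r of 0.72 to 0.999 between probes of this gene, and the MYH4 probes did so with r of 0.45 to 0.996. For MYH1, r between its own probes ran from -0.14 to 0.988.

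The exceptions lay between MYH1 and MYH2. The MYH2 probe A_72_P600848, the one whose groups overlapped, was nearest to the MYH1 probe A_72_P590054 (r = 0.964) and less near to the other MYH2 probes (r = 0.788 and 0.789). The MYH1 probes A_72_P590054 and A_72_P442365 were in turn nearest to that MYH2 probe, with r of 0.964 and 0.675. The brightest MYH1 probe, A_72_P619550, formed a pair with the MYH1 probe A_72_P608642 (r = 0.953), and both were highest on the slide 1 arrays. The coding sequences of the fast myosins are closely similar, and whether any of these probes also binds a neighbouring gene's transcript was not tested.

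Between the brightest probes of different genes, r over the 9 arrays was 0.55 for MYH1 and MYH4, 0.42 for MYH1 and MYH2, 0.36 for MYH4 and MYH7, 0.33 for MYH1 and MYH7, 0.19 for MYH2 and MYH7 and -0.43 for MYH2 and MYH4. With 9 arrays from 2 diets these values carry no test.

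The balance between isoforms was read as the log2 ratio of 2 genes' brightest probes on the same array. Such a ratio does not depend on a single scaling factor per array, but background correction and quantile normalisation can move it. The height of a ratio depends on the probes and has no meaning of its own, only its difference between animals does, and no test was made of these ratios. MYH4 over MYH2 was 1.26, 2.45, 0.64, 1.64, 1.85 and 0.51 in HFHSD 1 to HFHSD 6, against -0.41, -0.48 and 0.25 in CD 1 to CD 3. All 6 HFHSD animals lay above all 3 CD animals, with HFHSD 3 and HFHSD 6 nearest to them. The mean was 1.39 ± 0.74 in HFHSD (SD, n = 6) and -0.21 ± 0.40 in CD (SD, n = 3), a difference of 1.60. It was 1.58 within slide 2 and 2.57 within slide 3, and 1.39 to 1.83 with any 1 array left out. After normexp correction it was 1.77 with percentile scaling and 1.80 with quantile normalisation.

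On the brightest probes MYH1 over MYH2 was also separated by diet. It was 1.29, 1.83, 0.85, 1.56, 1.79 and 1.01 in HFHSD 1 to HFHSD 6, against 0.068, 0.43 and 0.64 in CD 1 to CD 3, with means of 1.39 ± 0.41 in HFHSD (SD, n = 6) and 0.38 ± 0.29 in CD (SD, n = 3). The lowest HFHSD animal, HFHSD 3, lay just above the highest CD animal, CD 3. The difference was 1.01, and it was 1.17 within slide 2 and 1.29 within slide 3.

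Over all pairs of probes of the same genes the difference ran from 0.74 to 2.47 for MYH4 over MYH2 and from 0.11 to 1.24 for MYH1 over MYH2. The diets did not overlap in 12 of 24 pairs for MYH4 over MYH2 and in 8 of 21 pairs for MYH1 over MYH2. The signs of these differences follow from the differences of the single probes given above and add nothing to them. MYH2, the lower part of both ratios, did not overlap between the diets on its own brightest probe. Over all tested single probes 10.9% did not overlap in either direction, and no such share was taken for ratios.

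In the remaining ratios of brightest probes the diets overlapped. MYH7 over MYH2 averaged 1.84 ± 0.79 in HFHSD and 1.06 ± 0.40 in CD (SD, n = 6 and 3). MYH4 over MYH1 averaged 0.0017 ± 0.37 in HFHSD and -0.59 ± 0.28 in CD, and MYH4 over MYH7 averaged -0.45 ± 0.45 in HFHSD and -1.28 ± 0.40 in CD. For MYH7 over MYH1 the means were 0.45 ± 0.53 in HFHSD and 0.69 ± 0.55 in CD, and the sign of the difference depended on the probes, with 38 of 56 pairs above 0 and 18 below.

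**Figure D4:**
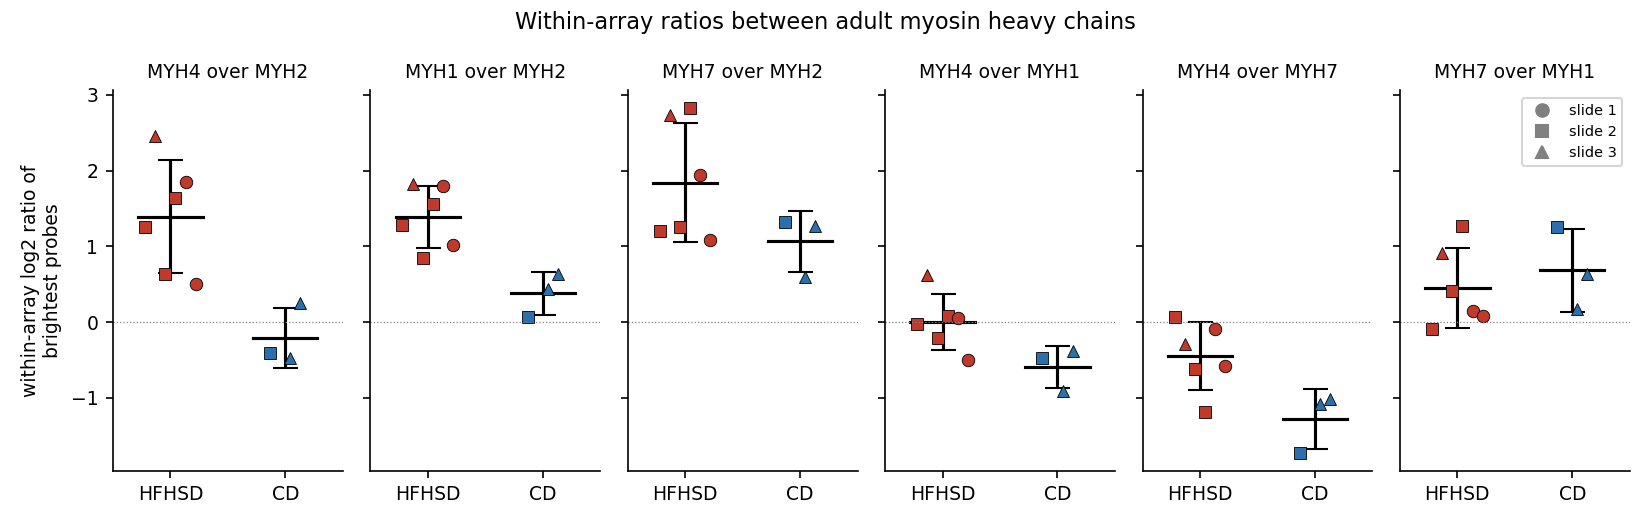
Within-array log2 ratio between the brightest probes of 2 genes (y axis) in the 6 HFHSD and 3 CD animals, 1 panel per pair of genes. Points are arrays, shapes the slides, and bars the mean and SD. MYH4 over MYH2 and MYH1 over MYH2 are higher in every HFHSD animal than in every CD animal, and the diets overlap in the other 4 panels.

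The genes that work beside the heavy chains in the sarcomere were taken from 11 lists of 95 genes, of which 49 had a tested probe and 0 passed the test at a limma adjusted p under 0.05, where 0.995% of the 2613 named genes did. Unadjusted p was under 0.05 for 5 of the 49, against 16.5% of all tested probes. The list of other myosin heavy chains had 0 of 10 measured, so embryonic, perinatal and smooth muscle isoforms are not described.

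The 5 measured light chain and thin filament genes of slow fibres went with most MYH7 probes across animals. The brightest MYH7 probe differed at the top, where CD 1 (10.53) lay above HFHSD 4 (10.40) and HFHSD 2 (10.38). MYL2, the slow and ventricular regulatory light chain, read 7.46, 9.97, 7.61, 9.93, 8.52 and 8.82 on HFHSD 1 to HFHSD 6, against 8.55, 7.99 and 8.79 on CD 1 to CD 3. TNNI1, the inhibitory troponin of slow fibres, read 5.78, 9.06, 6.90, 8.73, 7.19 and 7.32 on HFHSD 1 to HFHSD 6, against 7.63, 6.84 and 7.41 on CD 1 to CD 3. HFHSD 1 was lowest, and HFHSD 2 and HFHSD 4 were the 2 highest, on each of 5 slow genes: MYL2, TNNI1, the troponin T gene TNNT1, the calcium-binding troponin gene TNNC1 and the slow tropomyosin gene TPM3. Their range over the 9 arrays was 3.38- to 9.73-fold. The order of the arrays was set beside MYH7 after its values were seen. It is not limited to slow genes. ACTN2, which the lists assign to neither fibre type, was lowest on HFHSD 1 (6.56) and highest on HFHSD 2 (8.46) and HFHSD 4 (8.34). The share of all named genes with this order was not taken.

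The diet differences of these 5 slow genes were small beside that spread. They were 0.27 for MYL2 (SE 0.58), 0.21 for TNNI1 (SE 0.64), 0.16 for TNNC1 (SE 0.40), 0.047 for TPM3 (SE 0.57) and -0.029 for TNNT1 (SE 0.37), and each adjusted p was 0.875 or higher with limma. The sign for TPM3 turned with median scaling, and that for TNNT1 with quantile normalisation and after normexp correction with percentile scaling. Genes outside the naming rule, chosen after their values were seen, had HFHSD 2 and HFHSD 4 as the 2 highest arrays too. ATP2A2, the calcium pump of slow fibres and heart, read 3.77, 6.25, 4.44, 6.39, 4.66 and 4.80 on HFHSD 1 to HFHSD 6, against 5.33, 4.73 and 5.16 on CD 1 to CD 3. PLN, which restrains that pump, read 3.95, 6.59, 4.32, 6.73, 4.87 and 5.13 on HFHSD 1 to HFHSD 6, against 5.22, 4.90 and 5.22 on CD 1 to CD 3.

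Partners of fast fibres showed no such order of animals. In none of 6 fast genes was HFHSD 1 the lowest array or were HFHSD 2 and HFHSD 4 the 2 highest. TNNT3, the fast troponin T, read 9.49, 9.19, 9.62, 8.44, 9.46 and 9.75 on HFHSD 1 to HFHSD 6, against 10.66, 10.21 and 10.23 on CD 1 to CD 3. As for MYH2, every HFHSD animal was below every CD animal, as on 6.11% of all tested probes. The difference was -1.04 (SE 0.29, limma adjusted p = 0.108). The 4 tested TNNT3 probes gave -1.04 to -0.18, and over the alternatives the TNNT3 difference ran from -1.27 to -0.40. On their brightest probes the other fast genes differed less. MYL1, the fast essential light chain, differed by -0.28 (SE 0.19) and TPM1, an alpha tropomyosin, by -0.19 (SE 0.18). MYLPF, the fast regulatory light chain, differed by -0.087 (SE 0.18). TNNC2, the fast troponin C, differed by -0.080 (SE 0.19) and TNNI2, the fast inhibitory troponin, by -0.011 (SE 0.19). All 6 fast genes had the lower mean in HFHSD on the brightest probe, where 57.6% of the named genes did. However, 5 of them, all except TNNT3, turned positive after normexp correction with percentile scaling. TNNI2 also did so with quantile normalisation after normexp correction, and MYLPF, TNNC2 and TNNI2 did so with quantile normalisation alone. CD 1, the array with the fewest probes above background, was the highest array for all 6 fast genes. The order of animals was read on the brightest probes only. Apart from TNNT3, these ranged over the 9 arrays by 0.47 to 0.78, against a median of 1.40 over all tested probes. Over all probes of a gene the differences ran from -0.48 to 0.12 for MYL1, -0.41 to 0.75 for TPM1 and -0.32 to -0.087 for MYLPF. They ran from -0.080 to -0.045 for TNNC2 and -0.011 to 0.016 for TNNI2.

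**Figure D5:**
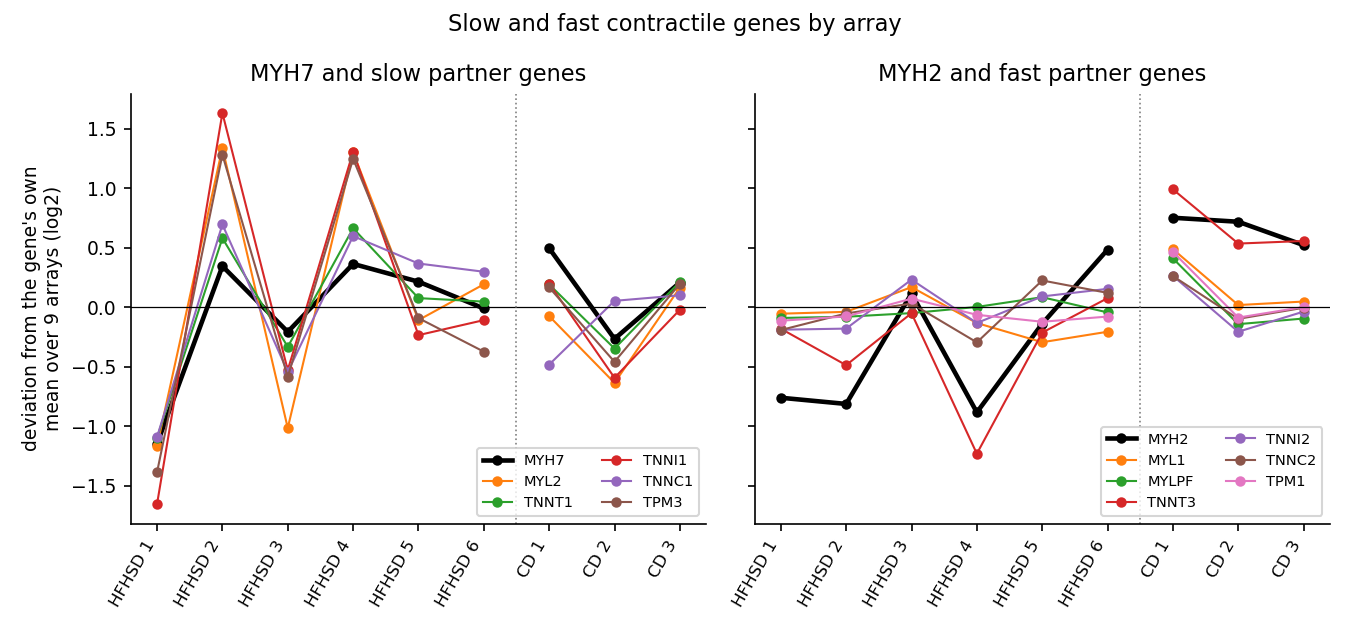
Deviation of each gene's brightest probe from its own mean over the 9 arrays (y axis, log2), with arrays on the x axis, HFHSD left of CD. Left, MYH7 (black) with 5 slow genes, which all have their minimum at HFHSD 1. Right, MYH2 (black) with 6 fast genes, of which TNNT3 is the one that lies below all CD animals in every HFHSD animal.

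Thin filament and Z-disc genes that the lists assign to neither fast nor slow fibres gave 3 higher and 6 lower of 9 measured. TPM2, beta tropomyosin, read 5.12, 5.65, 5.34, 5.35, 5.27 and 5.53 on HFHSD 1 to HFHSD 6, against 6.05, 6.29 and 5.90 on CD 1 to CD 3. The groups did not overlap, as on 6.11% of all tested probes in this direction, and the difference was -0.70 (SE 0.18, limma adjusted p = 0.093). TPM2 passed in 2 alternatives, with limma adjusted p of 0.0249 after normexp correction with quantile normalisation and 0.0470 over probes well above background on all arrays. In the other 21 it did not pass, and over all alternatives its difference ran from -0.85 to -0.29. TCAP, the Z-disc protein telethonin, differed by 0.66 (SE 0.34, limma adjusted p = 0.380).

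CSRP3, a muscle LIM protein of the Z-disc that is abundant in slow fibres and heart, had the widest range of the 9 genes in that list. It read 0.43, 8.12, 5.09, 7.40, 3.23 and 6.03 on HFHSD 1 to HFHSD 6, against 7.69, 7.00 and 7.47 on CD 1 to CD 3. HFHSD 1 was the lowest and HFHSD 2 the highest array, as on 3 of the MYH7 probes, and the CD animals lay close together. The difference was -2.34 (SE 1.45, limma adjusted p = 0.480), and for CSRP3 it was -1.41 without HFHSD 1.

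In the thick filament, MYBPH, MYOT and MYBPC1 were measured of 13 genes and differed by 0.95 (SE 0.79), 0.28 (SE 0.26) and -0.085 (SE 0.64). Myosin needs dedicated factors to fold, and 5 of 5 such genes were measured. The chaperones UNC45B, UNC45A and HSP90AA1 differed by -0.46 (SE 0.26), -0.27 (SE 0.17) and -0.35 (SE 0.25), and the methyltransferase SMYD1 and the small heat shock protein gene HSPB1 by 0.34 (SE 0.34) and 0.23 (SE 0.37). Of the genes that set the phosphorylation of the light chains, MYLK and PPP1CB were measured, at -0.071 (SE 0.60) and -0.016 (SE 0.19). PVALB, the calcium buffer of fast fibres, differed by 1.20 (SE 0.65), the fast calcium pump gene ATP2A1 by -0.24 (SE 0.26), and CASQ1, the calcium store protein of fast fibres, by 0.12 (SE 0.23).

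Among transcription factors and regulators that set fibre type, 13 of 26 were measured, 5 higher and 8 lower in HFHSD. MYOD1, a myogenic factor known from rodents to be more abundant in fast muscle, differed by -1.93 (SE 0.49, limma adjusted p = 0.086). Its groups did not overlap, as on 6.11% of all tested probes in this direction. However, MYOD1 was well above background on only 3 of 6 HFHSD and 2 of 3 CD arrays. After normexp correction the MYOD1 difference was -0.82 with percentile scaling and -0.44 with quantile normalisation. NFATC1, which carries calcineurin signals that favour the slow programme, differed by -0.91 (SE 0.28, limma adjusted p = 0.136) on its brighter probe and by 0.015 on its other probe. MEF2C, a partner of the myogenic factors, differed by 0.93 (SE 0.36, limma adjusted p = 0.231) and was higher on 3 of 3 probes.

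The genes whose brightest probe was most like each heavy chain over the 9 arrays were picked by Pearson r among 2609 named genes. For MYH7 they were the complement regulator gene CD55 (r = 0.944), TNNT1 (r = 0.936) and the chloride channel family gene CLIC5 (r = 0.888). Without HFHSD 1 and CD 2, the arrays farthest from the MYH7 median, r was 0.803, 0.775 and 0.803. For MYH2 they were CTSZ, a lysosomal protease gene (r = 0.953), NAXE, which encodes a metabolite repair enzyme (r = 0.935), and CD5L, which encodes a protein secreted by macrophages (r = 0.918).

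For MYH4 the most similar genes were TIAL1, an RNA-binding protein gene (r = 0.902), the splicing factor gene SMU1 (r = 0.877) and AHCYL1, which encodes a regulator of calcium release (r = 0.870). Without HFHSD 2 and HFHSD 5 the value for TIAL1 was 0.644. For MYH1 they were CLDN9, a tight junction gene (r = 0.983), TERT, the telomerase catalytic subunit gene (r = 0.983), and the lipoxygenase gene ALOX15 (r = 0.975). These 3 were, like MYH1, highest on HFHSD 5 and HFHSD 6, the arrays of slide 1. TNNT1 was the only sarcomere gene among the 12.

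Markers of other cell types were read in the same samples. Adipocyte markers were measured for 6 of 6 genes, all with a higher mean in HFHSD, a median difference of 1.51 and a limma adjusted p of 0.113 or more. Their mean level was 0.20 to 2.36 on the HFHSD arrays and -0.17 to -0.072 on the CD arrays, and PLIN1, the lipid droplet protein of adipocytes, passed the background call on 5 of 6 arrays in HFHSD and on 0 of 3 in CD. The median difference was -0.21 for 3 of 6 fibroblast markers, 0.00086 for 3 of 5 endothelial markers, -0.62 for 2 of 5 markers of smooth muscle and pericytes, and -0.036 for 3 of 6 leukocyte markers. Of the 3 leukocyte markers, CD163, a scavenger receptor of macrophages, differed by -1.13 (SE 0.55, limma adjusted p = 0.347), with a lower mean in HFHSD on 4 of 4 probes. CD14 differed by -0.036 on its brighter probe and by 0.35 on its other probe, and CD3E differed by 0.013, so the leukocyte markers gave no common direction. Single markers were measured for heart (0.61), nerve (-0.042) and satellite cells (0.99), and none for blood. The part of these cells in the MYH2 and MYH4 values was not tested.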

How the data were processed

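The deposited scanner output gives the intensity of each spot, unlogged, which the authors extracted with Agilent Feature Extraction 10.7.3.1, per the file headers. This signal has the background subtracted and a spatial trend removed on each array, with no scaling between arrays. The deposited series table held the same intensity values, with 0 spots different. Control spots and outlier spots were left out, which dropped 22 of 43603 probes. Log2 processed signal minus each array's 75th percentile was used. Accessions were matched without versions to the RefSeq table of Sscrofa11.1, for names and neighbours only, and named 6891 probes.

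Probes well above background on at least 3 arrays, 27922 in all, were fitted with limma 3.58.1 in R 4.3.3 (lmFit, eBayes, no covariates, two-sided, Benjamini-Hochberg), and the procedure was tested on simulated data. A gene is represented by its brightest tested probe. Genes named beside the 4 are the 3 most correlated with each, and in each list those called plus up to 3 with the smallest p. TNNT1, TNNI2, ATP2A2, PLN, SMYD1, HSPB1 and ACTN2 are named beyond the lists' rule, with their values seen. PLIN1 and CD163 were picked out of the marker lists in the same way. SMYD1, HSPB1, ACTN2, PLIN1 and CD163 were not followed over the alternatives. The genes and lists were chosen with earlier results of these data known.

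Alternatives were normexp correction (offset 50, on the median signal, since the files used hold no mean signal), quantile and median scaling, other filters on dim probes, slide as a fixed or random block, array weights, a variance trend with robust prior, outlier flags ignored, the mean of a gene's probes, and each array left out. Leaving out slide 1 was added after seeing the data. The number of arrays limits the precision.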

Additional observations from a re-analysis of the deposited data

Results flagged for a closer look

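Among 62 results, 3 had an array that stood apart from its own group by Dixon's test, which flags about 1 group in 20 by chance. On the MYH4 probe A_72_P599573, HFHSD 6 read 6.35, and the nearest HFHSD array 7.42, a gap of 0.650 of the group's range. For TPM1, HFHSD 3 read 10.37, and the nearest HFHSD array 10.23, a gap of 0.699 of the range. For UNC45B, HFHSD 3 read 3.26, and the nearest HFHSD array 2.62, a gap of 0.717 of the range. Groups of 3 were not tested, so the low MYH4 values of CD 2 are given above as values.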

How the results depend on the processing

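Over all probes, 344 passed, and the count was 88 after normexp correction with percentile scaling, 856 after normexp correction with quantile normalisation, 127 with median scaling, 66 with no filter on dim probes, 736 over probes well above background on all arrays, 84 with slide as a fixed block, 677 with slide as a random block, 1205 with array weights, 612 with a variance trend and robust prior, 57 without slide 1, which was chosen after seeing the data, and 25 to 325 with an array left out. The median of all tested probes moved from -0.024 to -0.173 with normexp correction and percentile scaling and to -0.171 with median scaling. MYH2 on its brightest probe kept its direction and side of the threshold, but its size ran from -1.43 within slide 3 to -0.59 after normexp correction with percentile scaling, and from -1.16 to -0.89 with an array left out. MYH4 kept them too, and its size was 1.18 after normexp correction with percentile scaling, 0.92 as the mean of its probes, 1.14 within slide 3, 0.32 within slide 2 and 0.48 to 0.77 with an array left out.

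MYH1, at 0.014, was 0.57 after normexp correction with percentile scaling and turned to -0.13 with median scaling, -0.11 with slide as a fixed block, -0.029 with slide as a random block, -0.12 with array weights, -0.25 without slide 1 and -0.10 as the mean of its probes, and ran from -0.11 to 0.12 with an array left out. MYH7, at -0.22, turned to 0.33 after normexp correction with percentile scaling and to 0.0065 as the mean of its probes, was -0.83 within slide 2 and 0.37 within slide 3, and ran from -0.42 to -0.0044 with an array left out. Ratios moved within slide 3, to 2.57 for MYH4 over MYH2, 1.81 for MYH7 over MYH2, 1.27 for MYH4 over MYH1 and 0.51 for MYH7 over MYH1, and MYH4 over MYH1 was 1.02 on the mean of the probes. With an array left out, MYH1 over MYH2 ran from 0.85 to 1.14, MYH7 over MYH2 from 0.54 to 0.93, MYH4 over MYH1 from 0.43 to 0.69, MYH4 over MYH7 from 0.60 to 0.97 and MYH7 over MYH1 from -0.49 to 0.053. The causes were not tested.

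Differences that turned sign, none of them past the threshold, were as follows. After normexp correction with percentile scaling they were 0.23 for MYH1 A_72_P442365, 0.052 for MYH2 A_72_P600848, 0.26 for ATP2A1, 0.51 for ATP2A2, 0.14 for HSP90AA1, 0.31 for MYBPC1, 0.24 for MYL1, 0.33 for MYLPF, 0.46 for PPP1CB, 0.40 for TNNC2, 0.49 for TNNI2, 0.38 for TNNT1, 0.36 for TPM1 and 0.19 for UNC45A. After normexp correction with quantile normalisation they were 0.15 for ATP2A2, 0.093 for MYBPC1, 0.11 for PPP1CB and 0.097 for TNNI2. With quantile normalisation alone they were 0.076 for ATP2A2, 0.031 for MYLPF, 0.12 for PPP1CB, 0.030 for TNNC2, 0.099 for TNNI2 and 0.057 for TNNT1. Median scaling gave -0.031 for CASQ1 and -0.100 for TPM3. Slide as a fixed block gave 0.37 for ATP2A2, 0.15 for MYBPC1, 0.36 for MYLK, 0.025 for PPP1CB and 0.068 for TNNT1, and as a random block 0.17 for ATP2A2, 0.078 for MYBPC1, 0.16 for MYLK and 0.025 for TNNT1. Array weights gave 0.24 for ATP2A2, 0.064 for PPP1CB, 0.035 for TNNI2 and 0.098 for TNNT1, leaving out slide 1 gave 0.14 for ATP2A2 and 0.11 for PPP1CB, and averaging the probes of each gene gave 0.11 for ATP2A2, 0.0024 for TNNI2 and 0.039 for TNNT1.

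With an array left out, differences ran from -0.44 to 0.096 for MYH1 A_72_P442365, -0.32 to 0.67 for MYH7 A_72_P529063, -0.29 to 0.23 for ATP2A2, -0.091 to 0.35 for CASQ1, -0.43 to 0.26 for MYBPC1, -0.72 to 0.73 for MYLK, -0.19 to 0.089 for MYLPF, -0.14 to 0.41 for PLN, -0.061 to 0.068 for PPP1CB, -0.023 to 0.39 for TNNC1, -0.16 to 0.024 for TNNC2, -0.10 to 0.55 for TNNI1, -0.12 to 0.12 for TNNI2, -0.21 to 0.19 for TNNT1 and -0.21 to 0.33 for TPM3. Differences that kept their sign but moved by over 1.5 times ran from -2.95 to -1.41 for CSRP3, 0.023 to 0.52 for MYL2, 0.53 to 1.47 for MYBPH, -0.59 to -0.20 for UNC45B, -0.36 to -0.13 for MYL1, 0.17 to 0.38 for MYOT, -0.30 to -0.021 for TPM1, -0.43 to -0.0085 for ATP2A1, -1.20 to -0.60 for NFATC1, 0.60 to 1.23 for MEF2C, -0.56 to -0.22 for MYH2 A_72_P600848, 0.49 to 1.69 for MYH4 A_72_P599573 and 0.74 to 1.68 for MYH4 A_72_P615705. Over all alternatives CSRP3 ran from -2.95 to -1.37, MYBPH from 0.53 to 1.67, NFATC1 from -1.20 to -0.45, MEF2C from 0.60 to 1.43 and MYOD1 from -2.20 to -0.44. With array weights MYOD1 passed (limma adjusted p = 0.0264). No paired analysis was possible because the replicate numbers follow accession order and pair no animals. Few CD arrays and 1 dim CD array limit what can be told apart.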
